A study of Rattus norvegicus with 2 samples.

Results

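Stk39 encodes SPAK, a serine and threonine kinase of the STE20 family, and 24 of the 11599 circular RNAs (circRNAs) listed in rat spinal cord carried its name. They were chosen as every entry whose gene field held Stk39. The gene itself was chosen by the number of circRNAs listed for it in these libraries, so that number and the reads behind it are given as a description. CircRNAs were compared between rats with bone cancer pain (BCP) and sham-operated rats at 21 days after surgery. In the BCP group, live Walker256 cells, a rat mammary carcinoma line grown as ascites in SD rats, had been placed in the marrow of the tibia, and in the sham group the same kind of cells after boiling for 20 minutes. The labels describe 3 animals per group, with no transgene or drug, and do not give the age of the animals. There was 1 library per group and no replicate check on any difference, so every ratio below compares these libraries and not the conditions. All intervals are 95% and cover only the counting error of reads, which are not independent molecules.

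SPAK works between the WNK kinases, which sense chloride and osmotic stress and switch it on, and the cation-chloride cotransporters that it phosphorylates. Phosphorylation activates the sodium-potassium-chloride cotransporter NKCC1 and inhibits the potassium-chloride cotransporter KCC2. In spinal neurons these transporters set internal chloride and so the response to GABA and glycine. A circRNA forms when a splice site is joined back to one further upstream in the same transcript, and the reads counted here cross that junction after digestion of linear RNA with RNase R. They therefore report circular forms and not the amount of Stk39 mRNA or of the kinase.

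The sham library held 113033 back-splice reads and the BCP library 78836. The smallest count above 0 was 2 in each, so a 0 may hide a single read. As CPM, counts per 1e+06 circRNA reads of the library, 3 reads are 26.5 in sham and 38.1 in BCP. Of the neuronal marker genes, 9 of 10 hosted circRNAs, with 1569 reads in sham and 912 in BCP, and Gad1 was at 0. Oligodendrocyte markers had 3 of 7 hosts and 11 and 45 reads (Mobp, Mag, Myrf and Opalin at 0), and microglia and macrophage markers had 3 of 7 and 13 and 55 reads (Csf1r, Cx3cr1, Itgam and P2ry12 at 0). Astrocyte markers had 1 of 6, Slc1a2, with 5 and 3 reads, and Gfap and Aqp4 were at 0. Of skeletal muscle markers, 1 of 6 was listed, Dmd (22 and 17 reads). All 5 epithelial carcinoma markers were at 0.

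Stk39 circRNAs took the same share of reads in both libraries within counting error. They had 829 reads in sham, 0.733% of the library (exact binomial interval 0.684 to 0.785), and 581 in BCP, 0.737% (0.678 to 0.799). That is 7334 and 7370 CPM, a ratio of BCP over sham of 1.00 (exact conditional binomial interval 0.902 to 1.12). The interval leaves out a 1.5-fold difference in either direction between these libraries. The median-of-ratios method and TMM, which scale on circRNAs seen in both libraries, moved every log2 ratio by -0.10 and -0.12, and the Stk39 ratio was then 0.934 (0.839 to 1.04) and 0.927 (0.832 to 1.03). With a gene called when its ratio was at least 2-fold and the interval excluded 1, 17.3% of the 2144 host genes that had 10 reads or more were called (8.82% higher and 8.49% lower in BCP), and Stk39 was not among them. By reads over both libraries it ranked 7 among 3865 host genes. By number of circRNAs it ranked 2, level with Nupr1 (24), behind Rims2 (48) and just ahead of Atrnl1 and Ttll5 (21 each). The median host gene had 2.

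All 24 circRNAs lay on chromosome 3 between 54370860 and 54566332 (build rn6), a stretch of 195 kb, and 0 circRNAs of another name overlapped it. RefSeq places Stk39 on the minus strand of the GRCr8 assembly. If the rn6 strand is the same, which the table does not give, the upper coordinate of each circRNA is its 5′ side. Exon annotation of rn6 was not used here. For 23 of the circRNAs Stk39 was the only name in the gene field, and the other (54561727 to 54566332) also carried small RNA family names. Spans ran from 4079 to 195473 bases, with a median of 51.8 kb against 9.71 kb over all circRNAs of the table.

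The 24 circRNAs used 9 start positions and 8 end positions, so most were different pairings of a few splice sites. Of the 50 pairings of these positions in which the end lies above the start, 24 (48.0%) were listed. Each of the 9 starts was joined to the end at 54566332, the uppermost of the locus. A second end lay 4 bases below it. Some starts and ends lay as close as an exon is long. The end at 54554495 was 109 bases above the start at 54554387, counting both positions, the end at 54510171 was 231 above the start at 54509941, and the end at 54463443 was 246 above the start at 54463198. None of these 3 short pairings was itself listed as a circRNA.

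**Figure D1:**
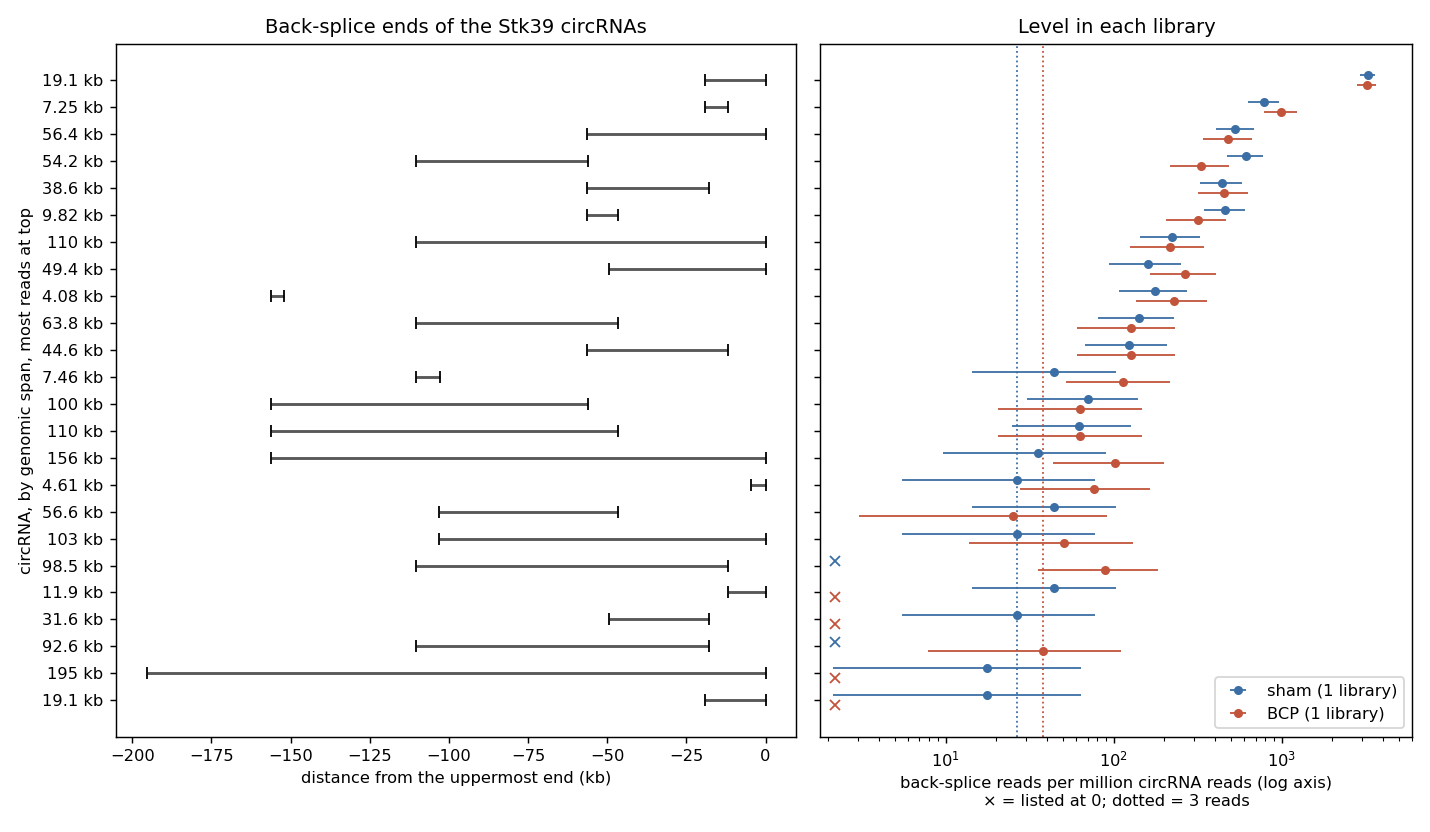
Left, the 24 Stk39 circRNAs drawn to scale as bars from start to end, in kb from the uppermost end of the locus, ordered by reads. Right, their level in CPM (log axis) in the sham and BCP libraries with exact Poisson 95% intervals; crosses mark a circRNA listed at 0 and dotted lines 3 reads. The 19.1-kb circRNA leads in both libraries with 369 and 253 reads, and most pairs of intervals overlap.

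One circRNA had more reads than any other of Stk39 in both libraries. It ran from 54547246 to 54566332 (19087 bases), with 369 reads in sham against 253 in BCP, or 3265 and 3209 CPM. It was number 12 of the whole table by reads over both libraries. Its share of Stk39 reads was 44.5% in sham (41.1 to 48.0) and 43.5% in BCP (39.5 to 47.7), and its ratio was 0.983 (0.834 to 1.16). The next circRNA shared its start and ended at 54554495 (7250 bases). Its reads numbered 89 in sham and 78 in BCP, with a ratio of 1.26 (0.915 to 1.72). The third by summed reads ran from 54509941 to 54566332 (56392 bases), with 60 and 38 reads and a ratio of 0.908 (0.588 to 1.39). Together these 3 held 62.5% of Stk39 reads in sham (59.1 to 65.8) and 63.5% in BCP (59.4 to 67.4). The order of the first 2 was the same in both libraries, and the third place was held by another circRNA in sham.

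That circRNA ran from 54455979 to 54510171 (54193 bases). Its reads numbered 69 in sham (610 CPM) and 26 in BCP (330 CPM). Its ratio was 0.540 (0.330 to 0.859), so it was 1.85-fold lower in BCP (1.16 to 3.03), short of the 2-fold limit. With median-of-ratios and TMM scaling it came almost to that limit, at log2 ratios of -0.976 and -0.988 with the reads added by the rule. Of the 15 Stk39 circRNAs with at least 10 reads it was the only one whose interval excluded 1, while over all 3502 circRNAs tested 18.3% of the intervals did, and 9.17% did so on the lower side. By the full rule 0 Stk39 circRNAs were higher and 0 lower, against 7.82% higher and 7.34% lower, or 15.2% in all, of the circRNAs tested. All 15 had reads in both libraries. Over the table, 84 of the 274 circRNAs called higher and 174 of the 257 called lower had 0 reads in one library. Whether 0 of 15 differs from the share over all was not tested. Ratios were above 1 for 8 of the 15 and below 1 for 7, and the median log2 ratio was 0.05, beside 0.02 over all circRNAs tested.

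**Figure D2:**
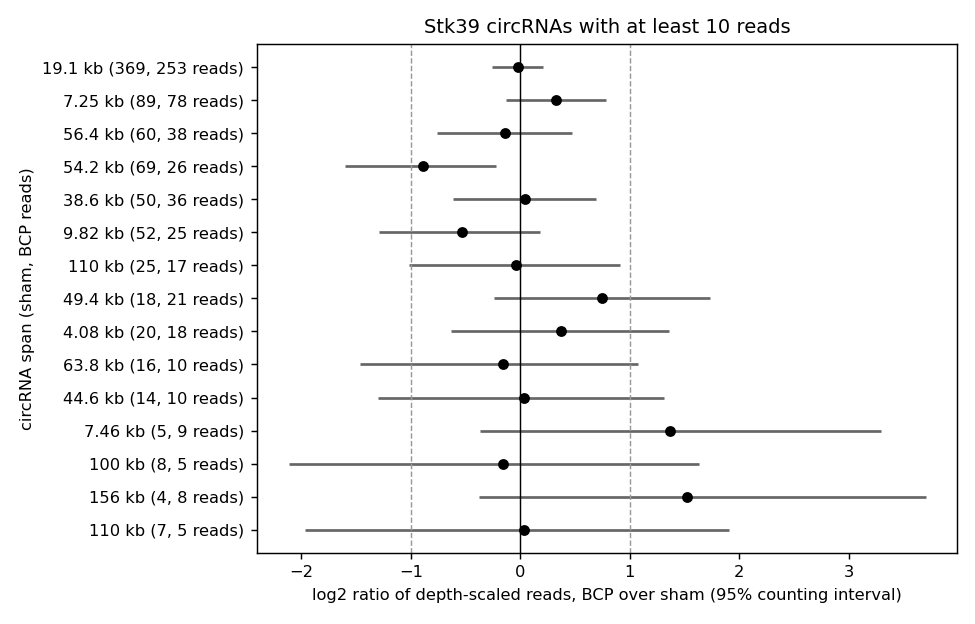
Log2 ratio of depth-scaled reads, BCP over sham, for the 15 Stk39 circRNAs with at least 10 reads, named by span with their reads in sham and BCP; bars are 95% exact conditional binomial intervals and dashed lines mark 2-fold. Only the interval of the 54.2-kb circRNA (69 and 26 reads) lies to one side of 0.

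The remaining circRNAs with at least 10 reads had intervals that held 1. From the start at 54509941, the circRNA to 54519757 (9817 bases) had 52 reads in sham and 25 in BCP, with a ratio of 0.689 (0.410 to 1.13). From the same start, the circRNA to 54548558 had 50 and 36 reads (1.03, 0.653 to 1.62), and the one to 54554495 had 14 and 10. The ratio of the last was 1.02 (0.407 to 2.48). Each of these intervals held 1, and that of the circRNA to 54519757 also held values well below it. The circRNA from 54516976 to 54566332 (49357 bases) had 18 and 21 reads and a ratio of 1.67 (0.849 to 3.33). At the lower side of the locus, the circRNA from 54410080 to 54414158, the shortest of all with 4079 bases, had 20 and 18 reads (1.29, 0.644 to 2.57). Its end was used by no other circRNA. The largest ratios belonged to thinly covered circRNAs. The circRNA from 54410080 to 54566332 (156253 bases) had 4 and 8 reads (2.87, 0.768 to 13.01), and the one from 54455979 to 54463443 had 5 and 9 (2.58, 0.777 to 9.80). Neither is distinguishable from equal levels at this depth. The other 4 had between 12 and 42 reads over both libraries and ratios from 0.896 to 1.02.

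Among the 11 Stk39 circRNAs that were seen in each library and had 20 reads or more, the log2 ratios ran from -0.89 to 0.74 with an SD of 0.44, where counting error alone gives 0.41. Over the 1722 circRNAs of the table that met the same condition the SD was 0.76, and counting error alone gives 0.50. These circRNAs share libraries and, at Stk39, splice sites, so they are not replicates of each other.

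Reads were concentrated on a few positions. The start at 54547246 was used by 460 Stk39 reads in sham (55.5%, 52.0 to 58.9) and 331 in BCP (56.97%, 52.8 to 61.0). The start at 54509941 had 176 and 109 reads, the one at 54455979 had 115 and 72, and the one at 54410080 had 39 and 36. Each of the other 5 starts had at most 21 reads in either library. On the other side, the end at 54566332 took 489 reads in sham (59.0%, 55.6 to 62.4) and 347 in BCP (59.7%, 55.6 to 63.7). The end at 54554495 had 103 and 95 reads, a ratio of 1.32 (0.990 to 1.76). The end at 54510171 had 77 and 31 reads and was 1.73-fold lower in BCP (1.13 to 2.72), and 69 and 26 of these belonged to the circRNA from 54455979 described above. Its other circRNA, from 54410080, had 8 and 5 reads.

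**Figure D3:**
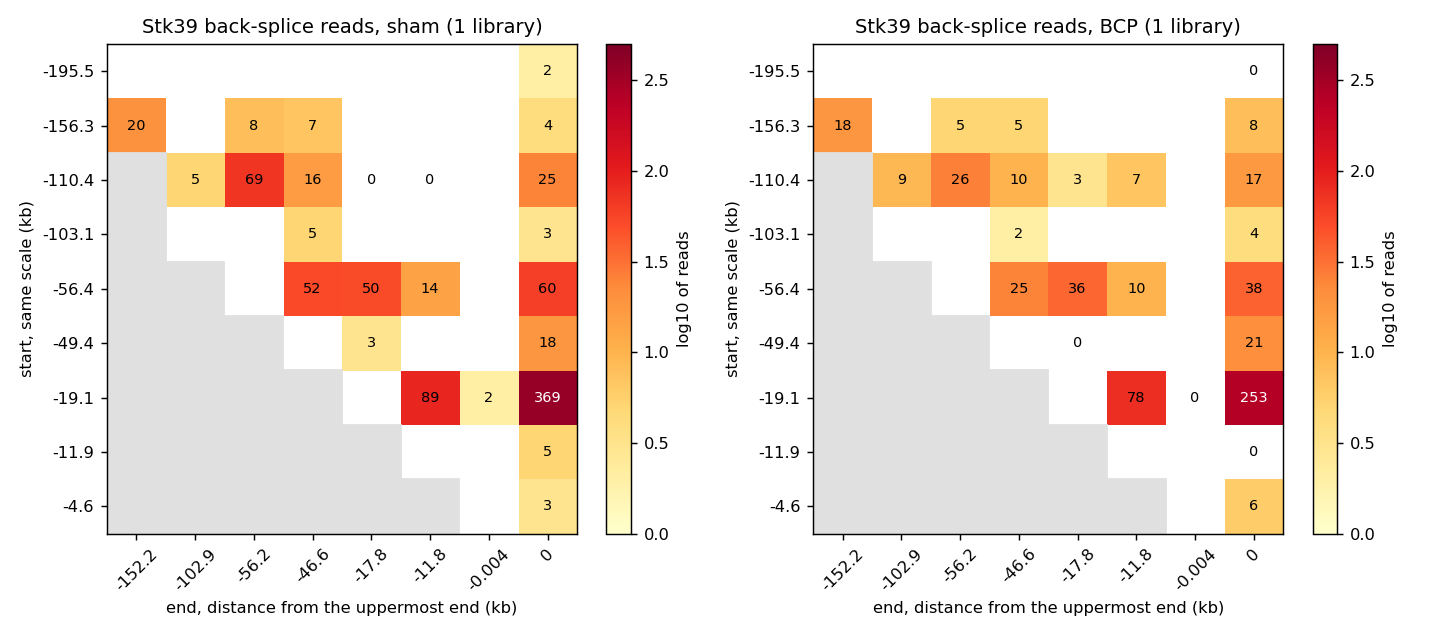
Back-splice reads for each pairing of a start (rows) and an end (columns) of Stk39, by distance in kb from the uppermost end, in sham (left) and BCP (right); colour is the log10 of reads, blank cells are pairings that were not listed and grey cells have the end below the start. The right-hand column, the end at 0 kb, is filled from every start in sham, and 369 and 253 reads sit where it meets the start at -19.1 kb.

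The end that took most reads differed between starts. From the start at 54547246, the nearest of the main starts to it, the end at 54566332 took 80.2% of reads in sham (76.3 to 83.8) and 76.4% in BCP (71.5 to 80.9). From the start at 54509941 it took 34.1% (27.1 to 41.6) and 34.9% (26.0 to 44.6), with the ends at 54519757 and 54548558 at a similar level. From the start at 54455979 it took 21.7% (14.6 to 30.4) and 23.6% (14.4 to 35.1), and from 54410080 10.3% (2.87 to 24.2) and 22.2% (10.1 to 39.2). In each library the interval of the first of these starts lies above those of the other 3, which overlap in part. These shares are not over the same ends. The ends listed above each of these starts numbered 4, 6, 7 and 8, so the lower starts had more ends to divide their reads among. From 54455979, the ends at 54548558, 54554495 and 54566332 had 0, 0 and 25 reads in sham and 3, 7 and 17 in BCP. The order of the shares is therefore no measure of a preference between ends.

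One start differed between the libraries in the ends it was joined to, a comparison chosen after its values were seen. Of the reads from 54455979, 60.0% in sham (69 of 115, 50.4 to 69.0) and 36.1% in BCP (26 of 72, 25.1 to 48.3) went to 54510171, and these intervals do not overlap. All other ends of that start together had 46 reads in each library, a ratio of 1.43 (0.932 to 2.21). They included both circRNAs of the gene that were listed in BCP alone. One ended at 54554495, with 7 reads in BCP or 9.72% of that start (4.00 to 19.0), where 0 of 115 reads in sham has an interval up to 3.16%. That interval takes the 0 as exact, although a 0 in these counts may hide a single read. Whether the 2 intervals would stay apart with such a read was not tested. The other circRNA listed in BCP alone ended at 54548558, with 3 reads in BCP. No other start with at least 30 reads in sham had an end whose intervals in the 2 libraries failed to overlap.

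**Figure D4:**
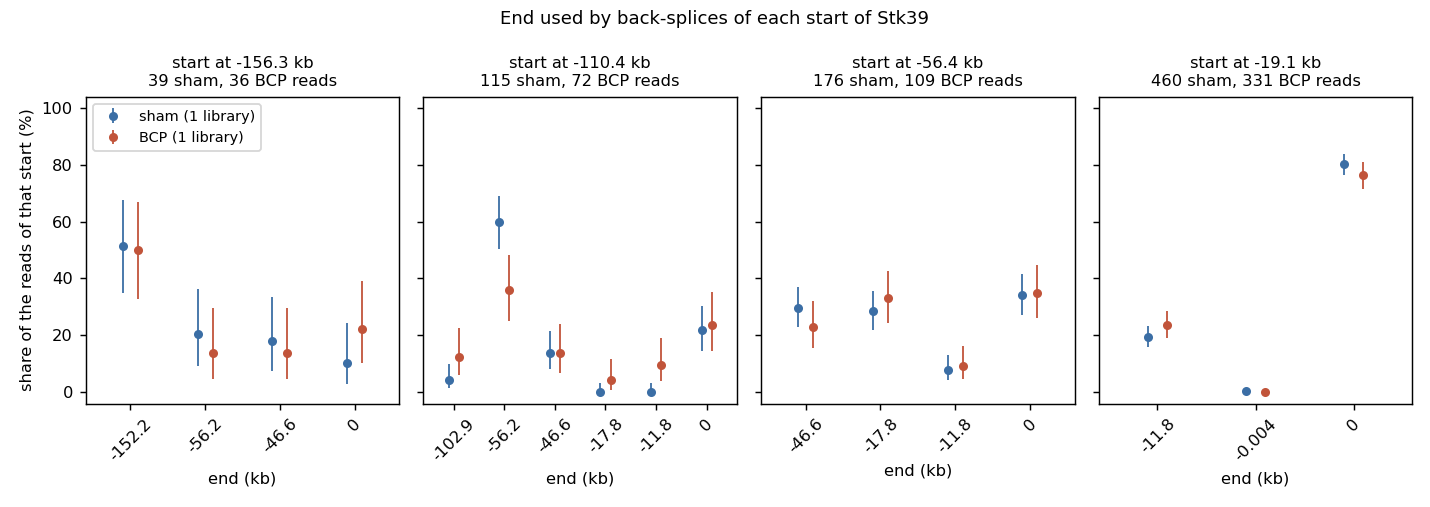
Share of the reads of a start that was joined to each end, for the 4 Stk39 starts with at least 30 sham reads, in percent with exact binomial 95% intervals; positions are in kb from the uppermost end. The intervals of sham and BCP are apart at 2 points, both of the start at -110.4 kb: the end at -56.2 kb (60.0% and 36.1%) and the end at -11.8 kb (0 and 9.72%). The 0 of the second point may hide a single read, which its interval does not cover.

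Grouped by span, the circRNAs held overlapping shares in the 2 libraries. The 8 circRNAs of up to 20 kb held 65.7% of Stk39 reads in sham (62.4 to 69.0) and 67.0% in BCP (63.0 to 70.8). Most of these reads, 369 of 545 in sham and 253 of 389 in BCP, came from the leading circRNA. At 19087 bases it lies just under the 20-kb limit, so these shares depend on where that limit is set. The 7 between 20 and 60 kb held 26.4% (23.4 to 29.6) and 22.9% (19.5 to 26.5), and the 9 longer ones held 7.84% (6.10 to 9.88) and 10.2% (7.82 to 12.9). The 9 longest were thinly read, with 65 reads in sham and 59 in BCP among them.

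Of the 24 circRNAs, 18 (75.0%) were listed in both libraries, 4 in sham alone and 2 in BCP alone. Of all circRNAs in the file 41.2% were listed in both, at a median count of 4 reads per listed circRNA, where the Stk39 medians were 11 in sham and 10 in BCP. The 4 listed in sham alone had 12 reads together. They ran from 54554387 to 54566332 (5 reads), from 54516976 to 54548558 (3 reads), from 54370860 to 54566332 (2 reads, the longest of all) and from 54547246 to 54566328 (2 reads). The last lies 4 bases from the end of the leading circRNA. The 2 in BCP alone had 10 reads. All 6, and 3 circRNAs listed in both, had 2 to 9 reads over both libraries and were not tested, and the 9 together made up 23 of 829 reads in sham and 22 of 581 in BCP. The 3 listed in both were 54561727 to 54566332 (3 and 6 reads), 54463198 to 54566332 (3 and 4 reads) and 54463198 to 54519757 (5 and 2 reads).

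Beside the other genes with many circRNAs, Stk39 had fewer splice positions than Rims2 or Ttll5, and more reads per circRNA than any of Rims2, Atrnl1 and Ttll5. Rims2, an active zone gene, had 48 circRNAs from 22 starts and 15 ends, with 28.2% of the possible pairings listed and 879 and 548 reads. Atrnl1 had 21 from 8 starts and 9 ends, with 44.7% listed and 583 and 298 reads. Ttll5, a tubulin glutamylase gene, had 21 from 11 starts and 10 ends, with 26.9% listed and 205 and 111 reads. Their leading circRNA held 28.6%, 25.6% and 62.9% of their sham reads (intervals 25.6 to 31.7, 22.1 to 29.3 and 55.9 to 69.6), so the 44.5% of Stk39 lay between. Of these genes, Atrnl1 had a summed ratio of 0.733 (0.635 to 0.844), Ttll5 of 0.776 (0.611 to 0.983) and Rims2 of 0.894 (0.802 to 0.996). The intervals of Atrnl1 and Stk39 do not overlap, and those of Rims2 and Ttll5 overlap with that of Stk39. Nupr1 was not compared, since the circRNAs given to it spread over 1012 kb and their assignment is uncertain. Numbers of positions grow with reads and gene length, so these counts are descriptions.

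Among 122 other host genes with at least 10 circRNAs, those whose log2 CPM in the 2 libraries lay nearest to Stk39 were Rims2 (7776 CPM in sham and 6951 in BCP, Euclidean distance 0.12), Gtf2i (7166 and 8093, 0.14), Elf2 (9493 and 8397, 0.42), Uvrag (5105 and 5797, 0.63) and Ubn2 (4556 and 4224, 1.06). Likeness over 2 libraries is little more than likeness in level.

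The closest relative of Stk39 met the size rule, which the Stk39 sum did not. Oxsr1 encodes OSR1, the kinase closest to SPAK and like it a target of WNK kinases. Its circRNA on chromosome 8 (127971477 to 127991861) had 28 reads in BCP (355 CPM) against 0 in sham, and met the rule as higher. Its other circRNA (127956550 to 127991861) had the same end, with 2 reads in sham against 0 in BCP. The Oxsr1 sum of 2 and 28 reads thus rests on 1 circRNA. Such zeros were frequent: 84 of the 274 circRNAs called higher had 0 reads in sham, and 174 of the 257 called lower had 0 in BCP, against up to 52 and 287 reads in the other library. The caller's filter is not stated, and its part in the calls of Oxsr1 and, below, Klhl3 and Stk4 was not tested.

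Of the 32 genes of the WNK-SPAK pathway list, which leaves out Stk39, 13 hosted a circRNA. The list was drawn broadly and took in genes outside the core pathway, such as Nedd4l and Strn. The WNK kinases were represented by Wnk1 (33 reads in sham and 32 in BCP, ratio 1.39, 0.828 to 2.33) and Wnk3 (55 and 25, ratio 0.652, 0.389 to 1.06), and 0 circRNAs of Wnk2 or Wnk4 were listed. Neither sum met the rule. With median-of-ratios and TMM scaling the Wnk3 interval excluded 1 (0.362 to 0.989 and 0.359 to 0.981). Its log2 ratios were then -0.707 and -0.719, still short of 2-fold. Cab39, whose product MO25 is a cofactor of SPAK and OSR1, had 10 and 9 reads. Klhl3, the adaptor through which a cullin ubiquitin ligase removes WNK kinases, had 22 and 2 reads over 4 circRNAs. It was lower in BCP by the rule (7.67-fold, 1.89 to 67.3), and 3 of its circRNAs, with 9, 8 and 2 sham reads, were listed at 0 in BCP. The circRNA of Klhl3 that had reads in both libraries had 3 and 2. Among substrates, no circRNA named Slc12a2 (NKCC1) or Slc12a5 (KCC2) was listed. The bicarbonate cotransporter gene Slc4a4 had 80 and 50 reads (0.896, 0.616 to 1.29). Of the genes outside the core pathway, the ubiquitin ligase gene Nedd4l, which acts on ion transporters, had 24 and 26 (1.55, 0.857 to 2.83). The striatin gene Strn had 23 and 12 reads. Per circRNA, 1 of the 10 tested was higher in BCP, that of Oxsr1, and 0 were lower, beside 7.82% and 7.34% over all. The median log2 ratio of the 10 was 0.22, beside 0.02 over all circRNAs tested. As sums, 1 of 10 tested genes was higher (Oxsr1) and 1 lower (Klhl3), about the 8.82% and 8.49% of all host genes. Both counts and the median come from a list chosen with earlier results of these data known.

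Of the STE20 kinase list, with 29 genes including Oxsr1, 15 hosted circRNAs and 16 circRNAs were tested. By the rule, 4 were higher in BCP and 0 were lower, beside 7.82% and 7.34% over all circRNAs tested, with a median log2 ratio of 0.06 against 0.02 over all. Besides that of Oxsr1, they belonged to Stk4, Stk3 and Map4k1. Stk4, which encodes the Hippo pathway kinase MST1, had a circRNA on chromosome 3 (160491308 to 160495240) with 30 reads in BCP against 0 in sham, while its other 6 circRNAs had 35 and 15 reads. Stk3, the gene of the related MST2, had one on chromosome 7 (73834044 to 73848871) with 17 and 27 reads (2.28, 1.20 to 4.45). Map4k1, a kinase gene of blood cells, had one on chromosome 1 (87947015 to 87947368) with 4 and 33 reads (11.8, 4.21 to 46.0). Reads of microglia and macrophage marker genes numbered 13 in sham and 55 in BCP. They came from Ikzf1 (11 and 43) and Dock8 (0 and 12), with 1 circRNA each, while Ptprc had 2 and 0. The other markers of that set were at 0. Whether cell content had a part in the Map4k1 value was not tested. Taok1, a gene for a kinase upstream of stress-activated MAP kinases (82 and 55 reads, ratio 0.962, 0.671 to 1.37) and Tnik (56 and 48 reads, 1.23, 0.818 to 1.84), the genes of the list with most reads, did not meet the rule. As sums over all circRNAs, 2 of 11 tested genes were higher, Oxsr1 and Map4k1, beside 8.82% of all host genes, and 0 were lower, beside 8.49%. Stk4 (35 and 45 reads, 1.84, 1.16 to 2.95) and Stk3 (40 and 42 reads, 1.51, 0.953 to 2.38) did not reach 2-fold.

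**Figure D5:**
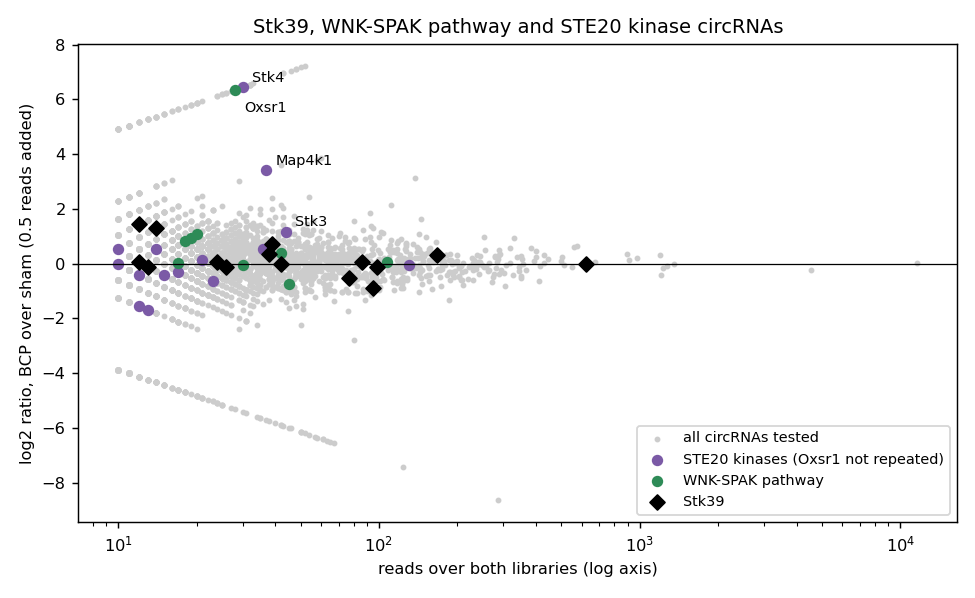
Log2 ratio of BCP over sham (0.5 reads added) against reads over both libraries (log axis) for all 3502 circRNAs tested (grey), the tested circRNAs of Stk39 (diamonds), of the WNK-SPAK pathway list (green) and of other STE20 kinases (purple). The 15 Stk39 points stay between -0.87 and 1.44, while Oxsr1 and Stk4 lie with the circRNAs listed at 0 in sham.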

How the data were processed

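The table lists circRNAs by position with 1 column of counts and 1 of scaled values per library. The counts the authors deposited are whole back-splice reads, each 0 or at least 2. The columns headed TPM that the authors deposited are CPM of each library's circRNA reads, and a 0 is written there as 0.001. Per the submitters' processing notes, the tools include CASAVA 1.8 and BWA and the build is rn6. The caller of circRNAs and its annotation are not stated in these sources. Per the labels' protocols, ribosomal RNA was removed and RNase R (16 units, 15 min) was used against linear RNA. A read minimum turns thin circRNAs to 0, more so in the shallower library. Pooling of animals is not stated. The source label names the injected cells, and the tissue label, spinal cord, was followed.

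Counts were scaled to column totals. Ratios have exact conditional binomial intervals and shares exact binomial (Clopper-Pearson) intervals, at 95%. The size rule took circRNAs or host sums with at least 10 reads over both libraries, a ratio of at least 2-fold with 0.5 reads added, and an interval that excluded 1. For host sums, small RNA family names and 11 names spread over more than 3 Mb were dropped, which left 10004 circRNAs with a single host. All 60 genes of the pathway and kinase lists have a symbol in RefSeq. The size rule and intervals were tested on simulated data that held counting (Poisson) error only. Ratios in the table spread more widely than that (SD 0.76, where counting error alone gives 0.50). The simulation therefore does not show how the rule performs on these libraries. Alternatives used DESeq2 1.42.0 and edgeR 4.0.16 scaling in R 4.3.3, and other work used Python 3.11.15 and scipy 1.17.1. Named were all Stk39 circRNAs, hosts of the lists that met the rule or had most reads, 3 other hosts with many circRNAs (Rims2, Atrnl1 and Ttll5) and the 5 nearest in level. Cab39 and Strn, the cell markers at 0, and genes listed without a circRNA were named for context. The members and lists were chosen with earlier results of these data known. Sequences at the splice sites were not analysed here.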

Additional observations from a re-analysis of the deposited data

How the results depend on the processing

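The summed Stk39 ratio stayed within its counting interval under every alternative run, from 0.927 with TMM to 1.02 without the most abundant circRNA. Leaving out that circRNA changed the shares. The largest remaining circRNA held 19.3% of reads in sham and 23.8% in BCP. The most used start was then 54509941 in sham and in BCP, with 38.3% and 33.2%. The most used end was not the same site in the 2 libraries. In sham it was 54566332 with 26.1% (120 reads, against 103 at 54554495). In BCP it was 54554495 with 29.0% (95 reads, against 94 at 54566332). With at least 5 reads or no minimum, 1 Stk39 circRNA was higher, the one from 54455979 to 54554495 (0 and 7 reads). At 1.5-fold, 1 was lower, that from 54455979 to 54510171. With at least 5 reads or no minimum, the WNK-SPAK list had 3 higher and 4 lower, the STE20 list had 5 higher and 2 lower, and 300 host genes were higher and 276 lower. At least 20 reads left 116 and 105 host genes, since fewer were tested, and a 3-fold limit 125 higher. The pseudocount moved the Stk39 median log2 ratio from 0.05 to 0.06. None of the 26 single log2 ratios recomputed with median-of-ratios and TMM scaling, of Stk39 circRNAs and of host sums, gained or lost a call. The circRNA from 54455979 to 54510171 stayed only just short of the fold limit, at log2 ratios of -0.976 and -0.988. These values include the reads added by the size rule. Its intervals excluded 1 under both scalings (0.307 to 0.799 and 0.304 to 0.792), so the fold limit alone left it uncalled. No paired analysis was possible because there is 1 library per group, and for the same reason no replicate could be left out. Depth limits the 9 Stk39 circRNAs with 2 to 9 reads, of which 1 had an interval that excluded 1 (lower bound 2.07).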
